A study of Mus musculus with 21 samples.

Results

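The hnRNP genes Hnrnpa1, Hnrnpa2b1, Hnrnpa3, Hnrnpc, Hnrnpd, Hnrnph1, Hnrnph2, Hnrnpk, Hnrnpl and Hnrnpu were followed through crosslinking maps of the RNA-binding protein RBM10 and through RNA-seq of cells without it. They were taken by name and make up 10 of the 37310 genes of the annotation. The 8 iCLIP libraries came from md MEPA cells. They are pharyngeal arch cells of the mandible, immortalised from 11.5 d.p.c. embryos of CD1 females and an 'Immortomouse' male, and kept at 33 °C with 100 U/ml murine interferon. In iCLIP, UV light (here 254 nm, 400 mJ/cm2) links protein to RNA, and the linked nucleotide is read from the sequenced fragment. Precipitation with an antibody against both mouse RBM10 isoforms gave 4 libraries, and rabbit IgG gave the 4 control libraries. Each antibody's libraries ran on a lane of their own, so that effects of antibody and of lane cannot be told apart. Polyadenylated RNA was sequenced from 4 separate md lines with an Rbm10 knockout (KO) made by CRISPR/Cas9 and from 3 wild-type (WT) md samples. The deletion lies in exon 3 in the lines KO1 and KO2, and in exon 9 in the lines KO3 and KO4. RNA was also sequenced from 3 samples of the male ES gene trap line CSI176, which is 1 clone, and 3 of its parental line E14Tg2a.4, both grown with LIF. Whether the WT md samples, or the samples of either ES line, were separate cultures is not stated. Their spread may therefore be technical, and p-values refer to that spread.

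hnRNPs are abundant nuclear proteins that coat nascent transcripts and influence splice site choice, mRNA export, stability and translation. Many of them limit the use of exons or splice sites, often in competition with SR proteins, and several tune their own levels through alternative splicing of their own transcripts. RBM10 is an X-linked RNA-binding protein that also regulates alternative splicing, most often by favouring exon skipping.

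The RBM10 libraries held between 774816 and 2847066 crosslinks and the IgG libraries between 103017 and 2214515, so values from the shallow IgG libraries 3 and 4 rest on few counts. RNA-seq values were TPM, transcript abundances scaled to a fixed total, whose read depth is unknown. Rbm10 was at 23.2, 19.7, 7.20 and 3.49 TPM in KO1 to KO4, against 21.4, 23.2 and 23.7 TPM in WT md cells, so that both exon 9 lines lay below WT and the exon 3 lines overlapped or neighboured it. In ES cells Rbm10 was at 3.63 to 4.27 TPM in KO and 32.2 to 33.5 TPM in WT samples. Of 7 arch mesenchyme markers 5 reached a mean of 1 TPM in KO and WT md cells, while Dlx5 and Hand2 did not. The arch markers' summed level ran from 681 to 2390 TPM over the md KO lines and from 1326 to 1608 TPM in md WT. In ES cells 2 arch markers reached that mean in KO and 1 in WT. All 6 ES markers reached it in both ES lines, and 2 did in KO and WT md cells. All 4 epithelial and 1 of 3 endothelial markers reached it in both ES lines, and none in md cells. Of 3 fibroblast feeder markers 1 reached it in both ES lines and 2 in md cells. No leukocyte marker did in any group.

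The nucleotides most often crosslinked in the RBM10 libraries show where in these genes the contacts lay. For each gene with a position seen in all 4 RBM10 libraries, the one with the highest mean CPM (crosslinks scaled to a fixed library total) is given, with a second for Hnrnpa2b1. Sequences are 25 nt of the mm9 genome, read 5′ to 3′ on the strand of the gene as DNA, with the crosslinked nucleotide in capitals.
Hnrnpa1, chr15:103071815-103071839, plus strand: gactaggaatggCttttgattctga
Hnrnpa2b1 first site, chr6:51411501-51411525, minus strand: tctgctttaatcCtaaacccaccac
Hnrnpa2b1 second site, chr6:51412106-51412130, minus strand: cttctttctcacCccctccctttcc
Hnrnpa3, chr2:75500217-75500241, plus strand: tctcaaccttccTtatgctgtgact
Hnrnpc, chr14:52701032-52701056, minus strand: cctgttttcaccCcacctgcctgtt
Hnrnpd, chr5:100405663-100405687, minus strand: ttagtttttaacCctaacaatgtca
Hnrnph1, chr11:50193252-50193276, plus strand: ttatctaaaagcCcaggaaatctga
Hnrnpk, chr13:58494329-58494353, minus strand: aagaagccttaaCcaagcaaacttc
Hnrnpl, chr7:29600063-29600087, plus strand: gagtctagtaatCctttcccaagct
Hnrnpu, chr1:180259590-180259614, minus strand: tcattgtcatttCctaaaaacaatt

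The crosslinked nucleotide was a C at 9 of these 10 positions and a T (U in RNA) at the tenth. At 7 of the 10 an annotated 3′ splice site lay 43 to 81 nt downstream. The exceptions were the second Hnrnpa2b1 site, the Hnrnpa3 site, which lay 66 nt after a 5′ splice site, and the Hnrnpk site. IgG libraries had no crosslink at 9 of the 10. The positions were chosen by their RBM10 counts, so these features are a description.

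Hnrnpa1, Hnrnpa2b1 and Hnrnpa3 encode the A/B type hnRNPs, which have tandem RNA recognition motifs and a glycine-rich tail, and their RNAs carried the clearest excess of RBM10 over IgG crosslinks. Over the whole gene body and on the gene's strand, Hnrnpa1 had 161, 152, 290.3 and 192 CPM in the RBM10 libraries 1 to 4, against 45.6, 40.6, 48.5 and 19.0 CPM in the IgG libraries. Hnrnpa2b1 had 685, 649, 1007 and 841 CPM with RBM10, against 287, 262, 262 and 266 CPM with IgG. Hnrnpa3 had 99.6, 105, 153 and 105 CPM with RBM10, against 35.2, 29.8, 48.5 and 25.3 CPM with IgG. In all 3 genes every RBM10 library lay above every IgG library. edgeR's quasi-likelihood test, fitted over 9284 genes and adjusted by Benjamini-Hochberg, gave log2 fold changes of 2.02 (SE 0.25, adjusted p = 0.000308) for Hnrnpa1, 1.28 (SE 0.18, adjusted p = 0.000538) for Hnrnpa2b1 and 1.56 (SE 0.22, adjusted p = 0.000604) for Hnrnpa3.

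Of the 10 genes, 5 were called higher in RBM10 libraries and 2 lower at an adjusted p under 0.05. Across all genes tested 20.4% were called higher and 17% lower. The median log2 fold change was 0.55 over the 10 genes and 0.05 over all genes tested. RBM10 libraries lay above all IgG libraries in 6 of the 10, against 30.1% of all genes. Without TMM scaling the median of all genes rose by 0.27 on the log2 scale, and the calls over all genes split into 2768 higher and 921 lower in place of 1893 and 1579.

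The other calls over gene bodies were small. Hnrnpl, whose protein binds CA-rich RNA, had 349, 325, 461 and 358 CPM with RBM10, against 193, 212, 204 and 222 CPM with IgG, a log2 fold change of 0.57 (SE 0.17, adjusted p = 0.0166, edgeR). Without the RBM10 library 3, or without IgG library 1 or 2, its adjusted p was 0.0516, 0.064 and 0.0589 in edgeR. Hnrnpc, whose protein binds uridine tracts and packages nascent RNA, had 179, 182, 247 and 204 CPM with RBM10, against 99.5, 115, 155 and 120.3 CPM with IgG. Its log2 fold change was 0.53 (SE 0.18, adjusted p = 0.0368, edgeR), and with the replicate as a block the adjusted p was 0.0578. Without RBM10 library 1 or 3, or IgG library 1 or 2, it was 0.0563, 0.0867, 0.16 and 0.135 in edgeR. With each position counted once per library, the log2 fold change was 0.24 (adjusted p = 0.217) for Hnrnpl and 0.18 (adjusted p = 0.377) for Hnrnpc in edgeR. Both genes had separate RBM10 and IgG libraries.

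Hnrnpd and Hnrnpu were called lower, with overlapping libraries. Hnrnpd, which encodes the AU-rich element binding protein AUF1, had 169.5, 184, 175 and 151 CPM with RBM10, against 164, 208, 214 and 222 CPM with IgG. Hnrnpu, which encodes a scaffold-attachment protein with an RGG box, had 273, 324, 282 and 292 CPM with RBM10, against 354, 359, 311 and 323 CPM with IgG. The log2 fold changes were −0.49 (SE 0.18, adjusted p = 0.0431) for Hnrnpd and −0.48 (SE 0.16, adjusted p = 0.0344) for Hnrnpu in edgeR. With the replicate block the adjusted p was 0.0709 for Hnrnpd and 0.0501 for Hnrnpu, and without TMM scaling it was 0.35 and 0.315. Hnrnpd kept its call in 3 and Hnrnpu in 6 of 14 alternatives, and leaving out RBM10 library 1, 3 or 4 or IgG library 2 ended both calls, with adjusted p between 0.0788 and 0.166 in edgeR.

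No call was made for Hnrnph1, Hnrnph2 and Hnrnpk. Hnrnph1 and Hnrnph2 encode close relatives that bind G-rich RNA, and Hnrnpk a KH-domain protein that binds C-rich sequence. Hnrnph1 had 205, 197, 235 and 192 CPM with RBM10, against 139.9, 145, 223 and 152 CPM with IgG, overlapping in IgG library 3, and a log2 fold change of 0.13 (SE 0.18, adjusted p = 0.565, edgeR). Hnrnpk had 145, 159, 191 and 139 CPM with RBM10, against 96.4, 118, 87.4 and 127 CPM with IgG. These libraries were separate, but the log2 fold change of 0.28 (SE 0.19) had an adjusted p of 0.238, or 0.0375 without TMM scaling. Hnrnph2 had only 20, 49, 56 and 13 crosslinks with RBM10, against 11, 18, 3 and 0 with IgG, and a count of 0 in that last library allows up to 19.0 CPM for counting error alone. A difference in Hnrnph2 was not detectable at this depth.

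**Figure D1:**
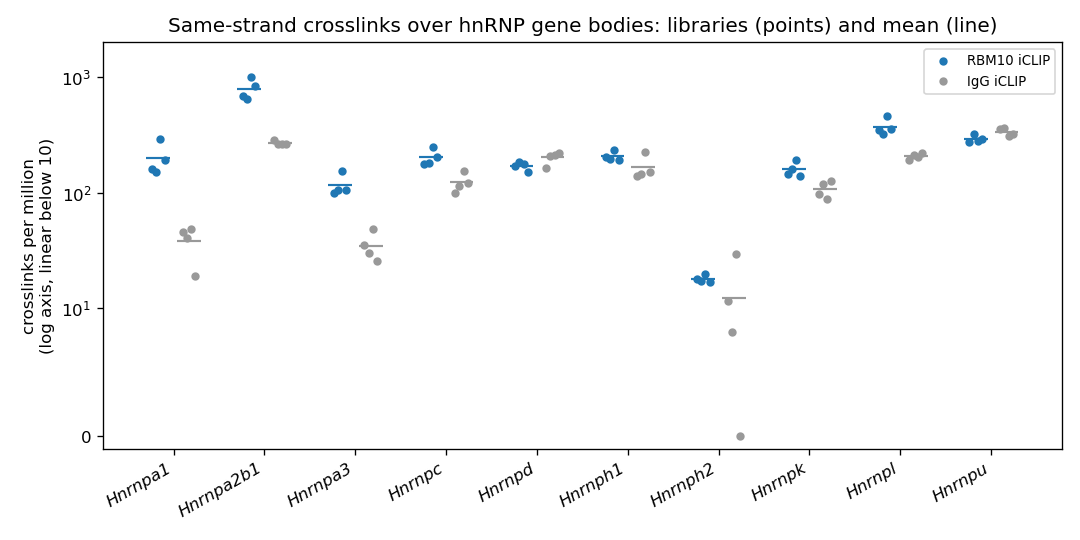
Same-strand CPM over each hnRNP gene body, on an axis that is logarithmic above 10 and linear below; points are the 4 RBM10 and 4 IgG libraries and lines their means. RBM10 libraries lie above all IgG libraries for Hnrnpa1, Hnrnpa2b1, Hnrnpa3, Hnrnpc, Hnrnpk and Hnrnpl.

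Hnrnpa2b1 ranked 47 among the 9284 genes by mean CPM in the RBM10 libraries, and most of that signal fell into the last part of the gene. The stretch annotated as 3′ UTR (chr6:51410433-51413253, 2821 nt) had 528, 1196, 2050 and 468 crosslinks with RBM10, against 94, 197, 13 and 17 with IgG. It held a mean of 69.3% of the gene's crosslinks with RBM10 and 39.1% with IgG. Its log2 fold change was 2.63 (SE 0.51, adjusted p = 9.08e-06, edgeR over 16810 gene stretches). Among all tested 3′ UTR stretches, 56 of 1440 (3.89%) were called higher and 557 (38.7%) lower, and the Hnrnpa2b1 stretch had the highest mean RBM10 CPM of the 1440.

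The annotation gives this stretch 2 readings. In transcript Hnrnpa2b1-203 it is 1 long terminal exon. In Hnrnpa2b1-201 and Hnrnpa2b1-202 the same bases hold most of a 1977-nt intron that begins 24 nt after the coding sequence ends, followed by a short last exon of 502 nt. The 1821 nt that are 3′ UTR in Hnrnpa2b1-203 and intron in the other transcripts (chr6:51411433-51413253) had 455, 405, 713 and 603 CPM with RBM10, against 86.0, 65.5, 107 and 69.6 CPM with IgG. They held a mean of 67.8% of the gene's crosslinks with RBM10 and 30.5% with IgG. The last exon shared by all 3 transcripts had 14.4, 9.83, 5.97 and 1.29 CPM with RBM10, against 7.25, 18.5, 19.4 and 38.0 CPM with IgG. RBM10 libraries were thus far above IgG in the part that splicing can remove, and overlapped them in the exon that every transcript keeps.

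Both printed Hnrnpa2b1 sites lie in that removable part. The first had 53, 159, 178 and 38 crosslinks with RBM10, against 0, 1, 0 and 0 with IgG, and lies 81 nt before the 3′ splice site of the last intron. The second, a pyrimidine tract with 24 C or T among 25 bases, had 34, 49, 172 and 28 crosslinks with RBM10 and none with IgG, 686 nt before that splice site. The 25-nt windows around them held 17.9% and 21.6% of the gene's crosslinks with RBM10, and 0.447% and 4.97% with IgG. With the 3′ UTR stretch left out, the gene body had 212, 229, 286 and 237 CPM with RBM10, against 189, 172, 136 and 158 CPM with IgG, and its log2 fold change was 0.24 (adjusted p = 0.261, edgeR). With each position counted once per library the gene body gave 0.13 (adjusted p = 0.553, edgeR), while the 3′ UTR stretch stayed called at 1.22 (adjusted p = 0.000554, edgeR).

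**Figure D2:**
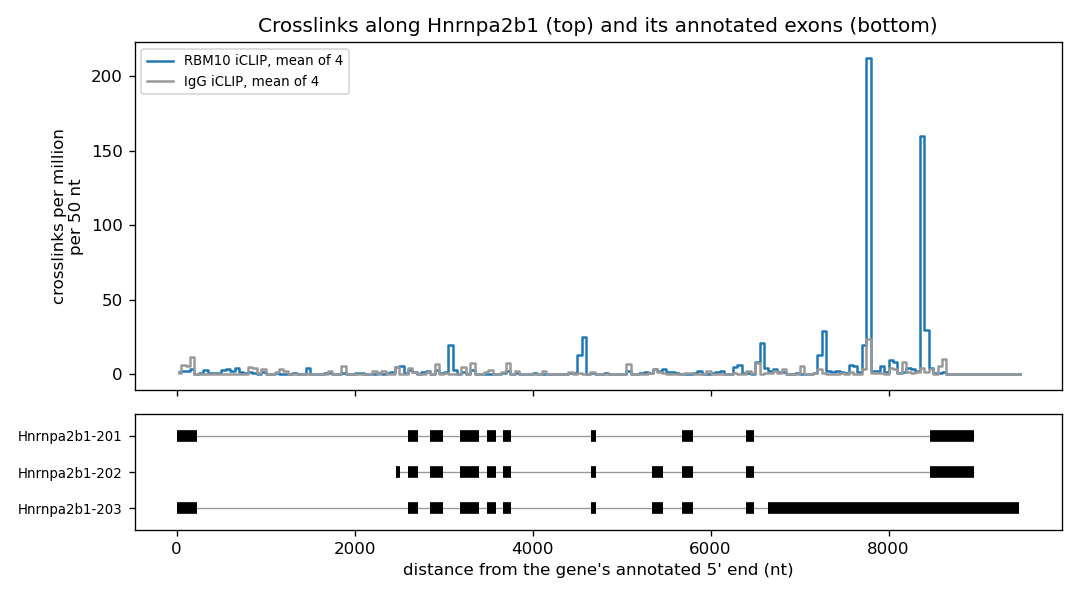
Mean CPM in bins of 50 nt along Hnrnpa2b1, by distance from the gene's 5′ end, for 4 RBM10 and 4 IgG libraries, with the annotated exons of 3 transcripts below. The 2 tallest RBM10 bins lie where Hnrnpa2b1-203 has its terminal exon and Hnrnpa2b1-201 and Hnrnpa2b1-202 have an intron.

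Most stretches called higher were introns, in the hnRNP genes (22 of 27) as over all genes (4533 of 5264). Divided at the annotated exon boundaries, the 10 genes gave 265 stretches, of which 54 had enough crosslinks to test. Of these 27 were called higher and 6 lower. A stretch was tested if it had enough crosslinks in at least 4 libraries, so it could enter on its RBM10 libraries alone. Counts called higher depend on that filter, which also applied to the stretches of all genes. Across all genes 40.1% of tested stretches were called, 31.3% higher and 8.74% lower. Of 34 tested introns of these genes 22 were called higher and none lower, against 32.7% higher and 4.47% lower over all introns tested. Of 6 tested 3′ UTR stretches 4 were called lower, against 38.7% over all genes, and that of Hnrnpa2b1 alone was called higher. Of 2 tested 5′ UTR stretches 1 was called lower, in Hnrnpa2b1, and of 5 coding stretches 1, in Hnrnpu, against 32.1% and 41.1% over all genes. The Hnrnpa2b1 5′ UTR kept its call in 9 of 14 alternatives and the Hnrnpu coding stretch (adjusted p = 0.0247, edgeR) in 8 of 14. The Hnrnpu call was lost with the replicate block (adjusted p = 0.0939), at a minimum of 10 crosslinks (0.0547) and without RBM10 library 3 (0.116), IgG library 1 (0.0901) or IgG library 2 (0.0757) in edgeR, and with DESeq2 (0.199). DESeq2 moved the median of all stretches by 0.66 on the log2 scale and split its calls into 6715 higher and 255 lower, in place of 5264 and 1470. Without TMM scaling they split into 5560 and 2907.

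The strongest intron was intron 4 of Hnrnpa3-003 (chr2:75500164-75500543, 380 nt). It had 60, 169, 240 and 31 crosslinks with RBM10, against 2, 8, 0 and 0 with IgG, and held a mean of 51.0% of the gene's crosslinks with RBM10. Its log2 fold change was 4.36 (SE 0.64, adjusted p = 2.6e-08, edgeR). In Hnrnpc, intron 3 of Hnrnpc-202 (chr14:52700983-52701463, 481 nt) had 52, 143, 244 and 55 crosslinks with RBM10, against 11, 2, 0 and 0 with IgG, a log2 fold change of 3.81 (SE 0.63, adjusted p = 3.22e-07, edgeR). By contrast intron 1 of Hnrnpc-202, with 19472 nt the longest, had 68, 180, 162 and 39 crosslinks with RBM10, against 50, 153, 5 and 12 with IgG, a log2 fold change of 0.05 (adjusted p = 0.934, edgeR). Introns 4 and 5 of Hnrnpc-202, of 3696 and 1676 nt, were also called higher, with log2 fold changes of 1.5 (SE 0.53, adjusted p = 0.0165) and 2.24 (SE 0.61, adjusted p = 0.00147) in edgeR. The Hnrnpc 3′ UTR was called lower, at −1.57 (SE 0.53, adjusted p = 0.0125, edgeR). That call was lost with DESeq2 (adjusted p = 0.115) and without RBM10 library 1 or 3 or IgG library 2, with adjusted p of 0.0707, 0.0794 and 0.0884 in edgeR.

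In Hnrnpa1, intron 2 of Hnrnpa1-202 (chr15:103071628-103071876, 249 nt) had 44, 95, 268 and 65 crosslinks with RBM10, against 5, 10, 2 and 0 with IgG, a log2 fold change of 3.54 (SE 0.61, adjusted p = 7.61e-07, edgeR). All 5 called stretches of Hnrnpa1 were introns with log2 fold changes between 1.92 and 3.54. In Hnrnpu, intron 12 of Hnrnpu-001 (chr1:180260071-180260295, 225 nt) had 17, 50, 96 and 35 crosslinks with RBM10, against 3, 1, 1 and 0 with IgG, a log2 fold change of 3.95 (SE 0.75, adjusted p = 5.67e-06, edgeR). The 3′ UTR of Hnrnpu went the other way, with 29, 105, 41 and 11 crosslinks with RBM10, against 48, 135, 4 and 12 with IgG and a log2 fold change of −1.15 (adjusted p = 0.0442, edgeR). That call was lost with DESeq2 (adjusted p = 0.165) and without RBM10 library 1, 3 or 4 or IgG library 2, with adjusted p up to 0.182 in edgeR. A gene body called lower thus held an intron called higher. The noncoding gene Gm16586 overlaps 1098 nt of Hnrnpu on its strand and held 6.78% of the gene's RBM10 and 1.39% of its IgG crosslinks.

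Hnrnpk showed the same contrast. Intron 15 of Hnrnpk-002 (chr13:58493838-58494556, 719 nt) had 40, 103, 149 and 25 crosslinks with RBM10, against 4, 10, 0 and 1 with IgG, a log2 fold change of 3.13 (SE 0.61, adjusted p = 9.93e-06, edgeR). The microRNA gene Mir7-1 lies in this intron, but its hairpin held 7 of the 317 RBM10 crosslinks (2.21%), against 4 of the 15 IgG crosslinks, on 15.0% of the intron's bases. The Hnrnpk 3′ UTR had 19, 71, 18 and 0 crosslinks with RBM10, against 33, 107, 5 and 10 with IgG, a log2 fold change of −1.70 (SE 0.51, adjusted p = 0.00413, edgeR).

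In Hnrnpl, Hnrnph1 and Hnrnpd the stretches called higher were intronic or lay in bases that only noncoding transcripts keep. Bases of that second kind held 45.1% ± 3.7 of the Hnrnpl crosslinks with RBM10, against 35.2% ± 17.8 with IgG (SD, n = 4 each). In Hnrnph1 they held 50.8% ± 8.1 with RBM10, against 43.5% ± 7.9 with IgG. RBM10 and IgG libraries overlapped in this share in both genes. In Hnrnpl, 7 stretches were called higher, with log2 fold changes between 1.29 and 2.70. The highest by RBM10 CPM (chr7:29602853-29603479) is exonic only in noncoding transcripts, and had 54, 125, 205 and 44 crosslinks with RBM10, against 13, 29, 1 and 1 with IgG. The Hnrnpl 3′ UTR was called lower, with 11, 29, 13 and 0 crosslinks with RBM10, against 26, 44, 1 and 4 with IgG, overlapping in CPM, and a log2 fold change of −1.68 (SE 0.53, adjusted p = 0.00656, edgeR). The Hnrnph1 stretch with the highest RBM10 CPM (chr11:50193467-50194960), exonic only in noncoding transcripts, had 50, 101, 192 and 30 crosslinks with RBM10, against 22, 73, 6 and 5 with IgG. It was not called, at 0.64 (SE 0.48, adjusted p = 0.27, edgeR), but had an adjusted p of 0.0226 in DESeq2. In Hnrnph1 a 197-nt stretch of the same kind (chr11:50193126-50193322), where Hnrnph1-006 has its intron 3, had 25, 44, 98 and 38 crosslinks with RBM10, against 1, 7, 2 and 0 with IgG, a log2 fold change of 3.23 (SE 0.67, adjusted p = 3.35e-05, edgeR). Over all genes 79.3% of tested noncoding exon stretches were called higher, against 4 of 7 in these genes. In Hnrnpd the 1801-nt intron before its 57-nt cassette exon, where the printed Hnrnpd site lies 66 nt before that exon, had 43, 89, 154 and 33 crosslinks with RBM10, against 14, 39, 1 and 0 with IgG, a log2 fold change of 1.59 (SE 0.52, adjusted p = 0.00899, edgeR), or an adjusted p of 0.0509 at a minimum of 10 crosslinks. RBM10 and IgG libraries overlapped in CPM in the 197-nt Hnrnph1 stretch and were separate in the Hnrnpl stretch called higher and the Hnrnpd intron. In Hnrnph2 the stretch with the highest RBM10 CPM, an intron of 1358 nt, had 7, 17, 18 and 5 crosslinks with RBM10, against 5, 3, 2 and 0 with IgG, too few to test.

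**Figure D3:**
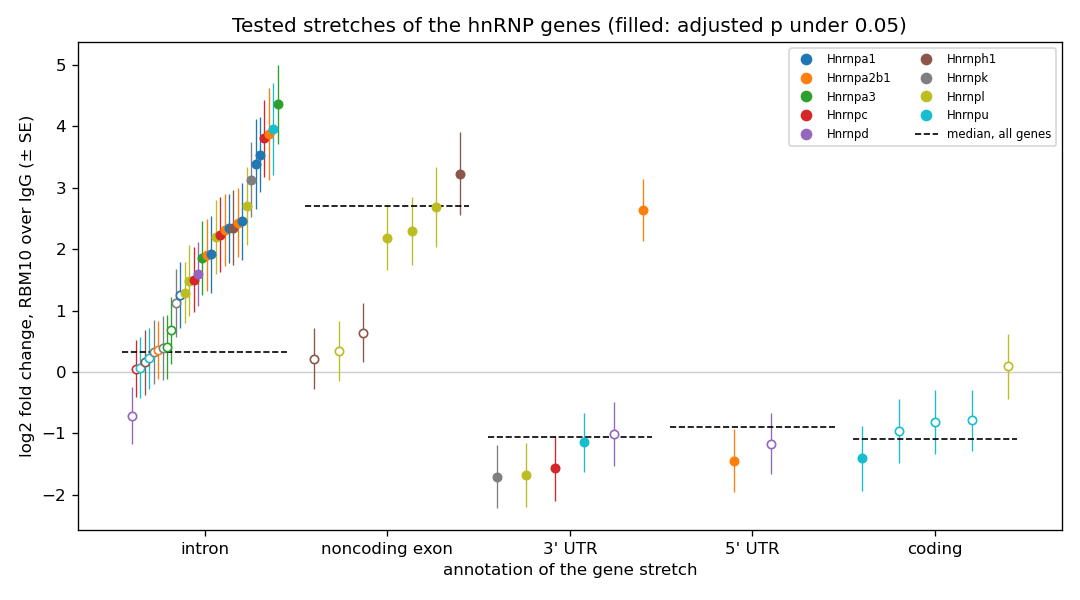
Log2 fold change of RBM10 over IgG crosslinks (± SE, edgeR) for the 54 tested stretches of the hnRNP genes by annotation; filled points are called, and dashed lines are medians over all genes. Of 34 introns 22 are called higher, and among the 3′ UTR stretches Hnrnpa2b1 alone is called higher.

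Over the 10 genes together, introns held 50.1, 49.4, 56.7 and 56.3% of the crosslinks in the RBM10 libraries, against 35.0, 37.3, 37.4 and 37.3% in the IgG libraries. Coding exons held 11.1, 14.0, 4.4 and 4.5% with RBM10, against 31.6, 29.4, 20.9 and 21.5% with IgG. Intron-annotated bases within 100 nt before annotated 3′ splice sites held 20.8% ± 3.9 with RBM10, against 4.35% ± 0.67 with IgG (SD, n = 4 each). Those within 100 nt after 5′ splice sites held 10.9% ± 1.2 with RBM10 and 4.16% ± 0.96 with IgG. RBM10 and IgG libraries did not overlap in any of these shares. The same shares over all genes are not given here, so a trait particular to the 10 genes cannot be read from them. Across all genes, introns were called higher in 32.7% and lower in 4.47% of tested stretches. For coding stretches these were 4.51% and 41.1%. Bases annotated as 3′ UTR or noncoding exon in another transcript, among them the first Hnrnpa2b1 site and the Hnrnph1 and Hnrnpl sites, are not in these splice site shares. In Hnrnpa1 and Hnrnpc, where introns held 97.8% ± 0.9 and 94.4% ± 2.8 of the RBM10 crosslinks, the share before 3′ splice sites was 58.0% ± 5.4 and 45.1% ± 7.4. The crosslinked nucleotide was a C in 41.0% ± 5.3 of the RBM10 and 15.9% ± 5.0 of the IgG crosslinks in these genes, and a U in 38.9% ± 4.1 and 54.2% ± 6.6.

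Some contacts recurred at the same nucleotides. RBM10 libraries had crosslinks at 8136 positions of the 10 genes, and 165 of them were seen in all 4 libraries, 78 in Hnrnpa2b1, 25 in Hnrnpl and 17 in Hnrnpa1. At 123 of the 165 no IgG library had a crosslink, but these positions were chosen by their RBM10 counts. The share of recurring positions over all genes is not given here, so the counts are a description. No position was seen in all 4 IgG libraries, of which libraries 3 and 4 were far shallower. Hnrnph2 had no position seen in all 4 RBM10 libraries.

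Among 22 other hnRNP and related RNA-binding protein genes 4 had more RBM10 than IgG crosslinks and 4 fewer by the same edgeR test, against 20.4% higher and 17% lower over all genes tested. Those higher included Hnrpdl (the annotation's name for Hnrnpdl), Ptbp1 and Cirbp, with log2 fold changes of 1.86, 1.14 and 1.26 and adjusted p of 0.000308, 0.00152 and 0.0492. Lower were Hnrnpa0, Hnrnpf, Pcbp1 and Pcbp3, with −1.81, −1.12, −1.97 and −0.56 and adjusted p of 0.00505, 0.00166, 0.00295 and 0.0243. Over gene bodies, the excess seen in Hnrnpa1, Hnrnpa2b1 and Hnrnpa3 thus did not extend to Hnrnpa0. Stretches of the 22 genes are not given here, so introns and exons in them are not told apart. Across all genes, coding stretches were called higher in 4.51% and lower in 41.1%, and 3′ UTR stretches in 3.89% and 38.7%.

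In md cells no hnRNP gene was called between KO and WT, where limma on log2(TPM + 1) called 2 of 12090 genes (0.0165%). Hnrnpa2b1 was at 531, 529.8, 705 and 523 TPM in KO1 to KO4, against 783, 794 and 759 TPM in WT, a log2 difference of −0.46 (SE 0.13, adjusted p = 0.623, limma). In such bulk samples fewer cells of a type and less RNA per cell cannot be told apart. Hnrnpa3 was at 167, 198, 228 and 177 TPM in KO1 to KO4, against 243, 236 and 254 TPM in WT, a log2 difference of −0.35 (SE 0.13, adjusted p = 0.673, limma). Hnrnpa1 was at 397, 493, 455 and 355 TPM in KO1 to KO4, against 561, 529 and 496 TPM in WT, a log2 difference of −0.32 (SE 0.13, adjusted p = 0.721, limma). In these 3 genes every KO line lay below every WT sample, a separation that 4.38% of all genes tested showed in that direction.

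The other 7 genes overlapped between KO and WT md samples, with log2 differences between −0.35 for Hnrnpc and −0.04 for Hnrnpu. All 10 differences were below 0, with a median of −0.18 against 0.01 over all genes. Those of Hnrnph2 and Hnrnpu turned positive when KO4 was left out, at 0.14 and 0.0076. KO3 had the highest level among the KO lines for 7 of the genes and KO4 the lowest for 7. Hnrnpc was at 89.1, 94.7, 148 and 88.1 TPM in KO1 to KO4, against 131, 134 and 128 TPM in WT, so that KO3 alone lay above WT.

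Between the exon 9 and the exon 3 lines 451 of 12090 genes (3.73%) were called by limma, 1.41% higher and 2.32% lower, none of the 10 among them. Hnrnph1 came nearest, with 423 and 474 TPM in the exon 9 lines KO3 and KO4, 636 and 796 TPM in the exon 3 lines KO1 and KO2, and 607, 662 and 632 TPM in WT. The log2 difference between exon 9 and exon 3 lines was −0.67 (SE 0.14, adjusted p = 0.0526, limma), and both exon 9 lines lay below all WT samples. Against the same WT samples, the exon 3 lines alone gave 24 called genes (0.199%, 0.0331% higher and 0.165% lower) and the exon 9 lines 76 (0.629%, 0.256% higher and 0.372% lower), with none of the 10 in either.

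In ES cells limma called 1576 of 12860 genes (12.3%), 968 higher in KO and 608 lower. The call count was unstable, from 21 without WT replicate 1 to 3985 without KO replicate 1, and quantile normalization split the calls into 719 higher and 838 lower. Of the 10 genes Hnrnpd was called, higher in KO, against 7.53% of all genes called higher and 4.73% lower. It was at 623, 605 and 728 TPM in KO, against 471, 459 and 519 TPM in WT, a log2 difference of 0.43 (SE 0.11, adjusted p = 0.0451, limma). Every KO sample lay above every WT sample. The adjusted p was 0.0649 with quantile normalization, 0.0584 with scaling to the median, and 0.119 to 0.166 without KO 2, KO 3, WT 1 or WT 2 (limma). It was 0.0751 with the replicate block and 0.0723 without a low-value filter (limma), so that 4 of 12 alternatives kept the Hnrnpd call.

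Hnrnpu and Hnrnph2 also had separate ES groups without a call. Hnrnpu was at 344, 329.7 and 384 TPM in KO, against 300.0, 291 and 275 TPM in WT, a log2 difference of 0.29 (SE 0.09, adjusted p = 0.0797, limma). Hnrnph2 was at 38.4, 33.7 and 38.7 TPM in KO, against 26.8, 28.1 and 33.0 TPM in WT, a log2 difference of 0.33 (SE 0.11, adjusted p = 0.0863, limma). KO samples above all WT samples were seen in 23.8% of all genes. The other 7 genes overlapped between the groups, with log2 differences between −0.01 for Hnrnpa1 and 0.27 for Hnrnpl. With quantile normalization Hnrnpa2b1 and Hnrnpk turned to −0.01 and −0.04.

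The median difference of the 10 genes was 0.18 in ES and −0.18 in md cells. The difference between the knockout effects, ES minus md, was positive for all 10, between 0.17 for Hnrnpk and 0.61 for Hnrnpc. None was called by limma, which called 104 of 10558 genes (0.985%), 0.483% higher and 0.502% lower. The lowest adjusted p was 0.108 for Hnrnpa2b1, with a difference of 0.56 (SE 0.18). Without the md line KO3, however, limma called 1314 of 10558 genes, among them Hnrnpa2b1, Hnrnpa3, Hnrnpc, Hnrnpd, Hnrnph2 and Hnrnpu, with differences between 0.48 and 0.79 and adjusted p between 0.012 and 0.0481. For each of these genes the other 14 of 15 alternatives gave no call. Among the 22 other genes of the group none was called in md cells. In ES cells Hnrnpab and Syncrip, which encode RNA-binding proteins related to hnRNP D and hnRNP R, were called higher in KO, with log2 differences of 0.32 (adjusted p = 0.0434) and 0.39 (adjusted p = 0.0326) in limma. Both lost the call with quantile normalization, at adjusted p of 0.0663 and 0.053 in limma. Hnrnpab kept its call in 4 and Syncrip in 6 of 12 alternatives.

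**Figure D4:**
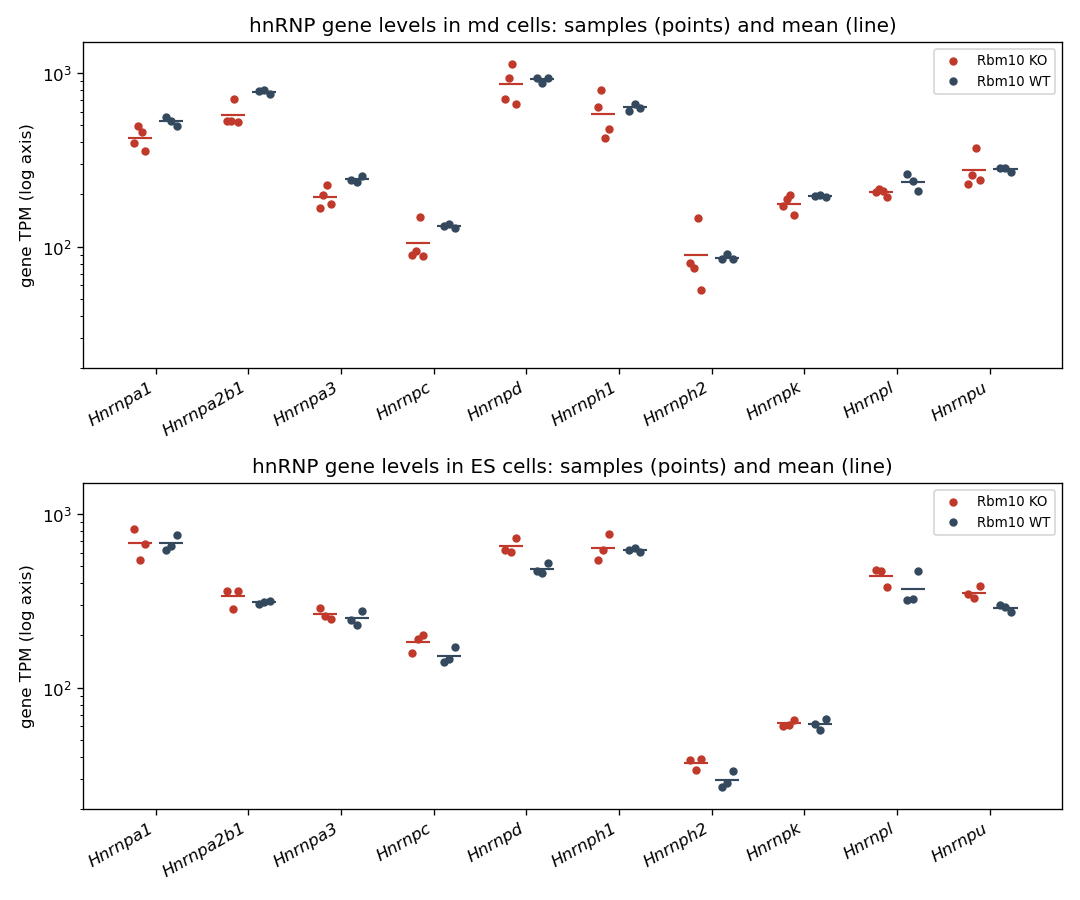
Gene TPM of the hnRNP genes on a log axis in md cells (top) and ES cells (bottom); points are samples, Rbm10 KO left of WT, and lines are means. In md cells the KO lines lie below all WT samples for Hnrnpa1, Hnrnpa2b1 and Hnrnpa3, and in ES cells the KO samples lie above all WT samples for Hnrnpd, Hnrnph2 and Hnrnpu.

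The order of levels differed between the cell types. In WT md cells it ran, in TPM, from Hnrnpd (877 to 941) over Hnrnpa2b1 (759 to 794), Hnrnph1 (607 to 662), Hnrnpa1 (496 to 561), Hnrnpu (270.4 to 284), Hnrnpa3 (236 to 254), Hnrnpl (209.9 to 261), Hnrnpk (194 to 199) and Hnrnpc (128 to 134) to Hnrnph2 (84.5 to 90.4), where only Hnrnpa3 and Hnrnpl overlapped as neighbours. In WT ES cells Hnrnpa1 (621 to 755) and Hnrnph1 (604 to 635) led and overlapped, followed by Hnrnpd (459 to 519), Hnrnpl (320.4 to 468), Hnrnpa2b1 (305 to 314), Hnrnpu (275 to 300.0), Hnrnpa3 (231 to 276), Hnrnpc (141 to 171), Hnrnpk (57.0 to 65.7) and Hnrnph2 (26.8 to 33.0). The tables were normalized separately, so levels across them are set side by side without a test. For Hnrnpk 2 of its 6 annotated transcripts were matched to the TPM table, so its level is partial. Between 80.9 and 98.7% of the Hnrnph1 TPM was assigned to noncoding transcripts. In WT md samples means of 52.0, 22.8 and 15.9% of Hnrnpd TPM stood on Hnrnpd-007, Hnrnpd-010 and Hnrnpd-012, of 493, 737 and 699 nt. In WT ES samples these shares were 27.0, 34.6 and 10.5%. Hnrnpd levels, and its ES call, thus rest in large part on short transcripts. Most Hnrnpu TPM stood on transcripts annotated as nonsense-mediated decay targets or retained introns. Hnrnpk overlaps Rmi1 by 747 nt and Hnrnpd overlaps Gm17092 by 1173 nt on the other strand, and several of these genes have processed pseudogenes, so reads there could be divided either way.

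The genes whose levels followed the mean of the 10 most closely, over 13 libraries and centred within each cell type, were Rangap1, 3110082I17Rik, Eef1d, Pabpc1 and Ppm1g, with Pearson's r between 0.955 and 0.986 among 7301 genes compared. These libraries share the KO and WT grouping. Within the family r with the mean of the other 9 was highest for Hnrnpk at 0.871 and lowest for Hnrnph1 at −0.05.

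Isoform use was examined as each transcript's share of its gene's TPM and as inclusion (PSI) of cassette exons. No transcript, exon or unproductive share of the 10 genes was called in either cell type. In limma, adjusted over all features, 25 of their transcripts were tested in md and 27 in ES cells, where 0 of 18725 and 8 of 18872 (0.0424%, 0.0265% higher and 0.0159% lower) transcripts were called in all, and 5 in md and 4 in ES cells had an unadjusted p under 0.05. Of 11 cassette exons in md and 9 in ES cells 2 each were under that unadjusted p, where 0 of 4150 and 8 of 3757 (0.213%, 0.106% higher and 0.106% lower) exons were called in all. The shares of all features under that unadjusted p, or with separate KO and WT groups, are not given here. The counts under it are therefore no comparison with all features. Exon and transcript counts also overlap, since Hnrnpa2b1-201 alone skips the 120-nt exon of Hnrnpa2b1.

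Hnrnpa2b1 had the lowest p among the md transcripts. Hnrnpa2b1-201, which lacks a 120-nt coding exon of 40 codons (chr6:51414427-51414546), was at 130.1, 97.4, 153 and 77.5 TPM in KO1 to KO4, against 242, 235 and 232 TPM in WT. As a share of the gene it was 24.5, 18.4, 21.7 and 14.8% in KO1 to KO4, against 31.0, 29.6 and 30.6% in WT. Inclusion of the exon was accordingly 75.5, 81.6, 78.3 and 85.2% in KO1 to KO4, against 69.0, 70.4 and 69.4% in WT, a difference of 10.5 points (SE 2.6, adjusted p = 0.31, limma). Every KO line lay above every WT sample without a call. Hnrnpa2b1-203, with the long terminal exon, made up 17.4, 19.0, 21.6 and 20.3% in KO1 to KO4, against 13.9, 14.6 and 14.5% in WT, a difference of 5.24 points (adjusted p = 0.48, limma). In ES cells it made up 17.1, 18.7 and 16.3% in KO, against 19.8, 18.0 and 24.0% in WT, with overlapping groups. In ES cells inclusion was 96.0 to 97.9% in KO and 96.2 to 96.7% in WT samples, too near 100% to be tested.

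Hnrnph2 showed a difference in the same direction in both cell types. Its 45-nt exon (chrX:131137457-131137501) lies in the 5′ UTR and is left out of Hnrnph2-001. Inclusion was 59.5, 63.6, 66.6 and 79.4% in KO1 to KO4, against 54.4, 56.8 and 55.2% in WT md cells, a difference of 11.8 points (SE 4.5, adjusted p = 0.514, limma). In ES cells it was 69.8, 59.2 and 62.4% in KO, against 44.5, 44.1 and 39.9% in WT, a difference of 21.0 points (SE 3.4, adjusted p = 0.0739, limma). Both comparisons had separate groups. For gene TPM, 10.7% of genes in md and 38.3% in ES cells had separate groups in either direction. With a minimum of 5 TPM in every library the ES difference had an adjusted p of 0.0441 in limma. In the other 8 of 9 alternatives it was not called, with adjusted p up to 0.223 in limma.

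**Figure D5:**
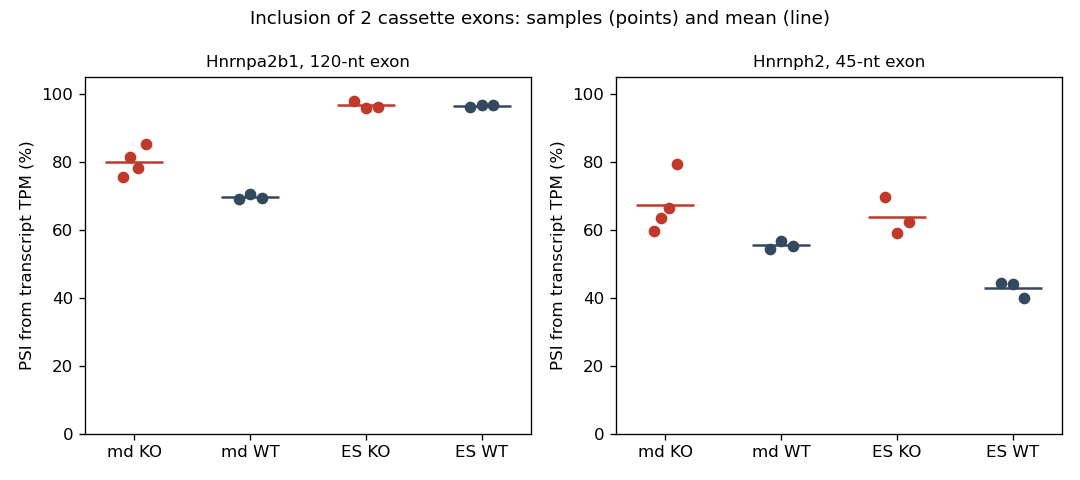
Percent spliced in (PSI, from transcript TPM) of the Hnrnpa2b1 120-nt exon (left) and the Hnrnph2 45-nt exon (right); points are samples, KO left of WT for each cell type, and lines are means. KO points lie above all WT points in md cells for both exons and in ES cells for the Hnrnph2 exon.

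Inclusion of a pair of cassette exons distinguishes the protein isoforms of Hnrnpd, but PSI here also counts transcripts annotated as nonsense-mediated decay targets. The 147-nt exon of 49 codons was included at 51.7, 44.5, 47.4 and 55.4% in KO1 to KO4, against 52.1, 52.0 and 51.0% in WT, with overlapping groups. In ES cells it was at 41.4, 30.7 and 32.8% in KO, against 50.9, 53.8 and 43.4% in WT, a difference of −14.4 points (SE 4.1, adjusted p = 0.187, limma). The 57-nt exon of 19 codons was at 57.3, 63.8 and 63.9% in ES KO, against 54.5, 55.2 and 55.9% in ES WT samples (adjusted p = 0.339, limma). KO samples lay below all WT samples for the longer exon and above them for the shorter one, without a call. Skipping of the longer exon stood mostly on Hnrnpd-010, a decay target at means of 260 TPM in ES KO and 168 TPM in ES WT. The coding transcripts that skip it, Hnrnpd-002 and Hnrnpd-005, had means of 4.88 and 2.00 TPM in ES KO. In ES WT they had 2.66 and 1.47 TPM. PSI of the longer exon is therefore not a share of protein isoforms. Inclusion of the shorter exon stood mostly on Hnrnpd-007, a transcript of 493 nt. Its means were 194 TPM in ES KO and 131 TPM in ES WT. PSI of the shorter exon is thus not such a share either.

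Transcripts annotated as nonsense-mediated decay targets or retained introns, here called unproductive, made up a mean of 38.7% ± 0.6 of Hnrnpd TPM in md KO (SD, n = 4) and 38.9% ± 1.0 in md WT (n = 3). In ES cells they made up 45.5% ± 1.5 in KO and 46.9% ± 2.5 in WT (n = 3 each). For Hnrnpl they made up 12.2% ± 0.6 in ES KO and 15.1% ± 2.0 in ES WT (n = 3 each), a difference of −2.90 points (adjusted p = 0.533, limma). None of the 4 genes tested in md and 3 in ES cells was called, where 0 of 3253 and 3 of 3338 (0.0899%, 0.03% higher and 0.0599% lower) genes were called in all, and none had an unadjusted p under 0.05. For Hnrnpu 90.1 to 94.3% of TPM in all samples stood on unproductive transcripts, mostly Hnrnpu-005.

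Hnrnpa1-203 was listed at 0 in all 4 KO md lines and at 21.4, 33.5 and 0 TPM in WT md samples, and stood at 205 to 329 TPM in ES KO and 278 to 321 TPM in ES WT samples. Hnrnpa2b1-201 was at 7.7 to 13.7 TPM in ES KO and 10.2 to 11.6 TPM in ES WT samples and at 77.5 to 153 TPM in md KO and 232 to 242 TPM in md WT samples. These levels come from separately normalized tables and were not tested.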

How the data were processed

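For iCLIP the authors deposited whole crosslink counts per position and strand for 8 libraries, with mapping to mm9 per the design text. Transcript TPM of the RNA-seq samples stand in 2 tables that the authors deposited, md and ES cells apart. The submitters' processing notes name mm9 and mm10 without a role. Not given in the sources used here are the aligner, the quantifier, strandedness and how duplicates were handled.

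Of 100249 listed transcripts 84877 (84.7%) matched the mm9 annotation by ID, holding 90.3 to 91.5% of TPM in md and 85.4 to 87.5% in ES cells. Gene TPM are sums over matched transcripts. They were tested as log2(TPM + 1) with limma 3.58.1 in R 4.3.3, for genes that reached 1 TPM in 3 or more libraries. Transcript shares, PSI and unproductive shares were tested in limma on the percent scale, for features with a mean share of 5 to 95% (1 to 99% for unproductive shares), and the first 2 also needed a difference of 10 points. Same-strand crosslinks per gene body, or per stretch between exon boundaries, were tested with edgeR 4.0.16 (TMM scaling, quasi-likelihood). Features entered through edgeR's filterByExpr, which asks for enough crosslinks in as many libraries as a group holds. CPM are crosslinks per total crosslinks of a library and are not TMM-scaled. The edgeR and limma calls required a Benjamini-Hochberg adjusted p under 0.05 over all features tested. All tests are two-sided. The limma and edgeR steps were tested on simulated data. A count of 0 was read as up to 3 counts, which covers counting error only, since crosslinks need not be independent molecules.

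The design text gives each RBM10 replicate its own IgG control, so the numbers pair these libraries, although deviations of same-numbered libraries were not correlated (−0.05 to 0.02). The genes and lists were chosen with earlier results of these data known. Named in the text are the 10 genes, called genes of the 22 others (1 of which is not reported here), transcripts with a mean share of at least 10% in a cell type, and, per gene, the stretch with the highest RBM10 CPM and some of up to 3 called ones with the lowest p. Hnrnpc introns 1 and 4, the Hnrnpl 3′ UTR, the Hnrnpa2b1 5′ UTR, the Mir7-1 hairpin and the named cassette exons were chosen after their values were seen. Alternatives covered pseudocount (0.1), low-value filters, scaling, DESeq2 1.42.0, the replicate block, logit shares, each position counted once and leaving out each library. Proteins were not used here.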

Additional observations from a re-analysis of the deposited data

Results flagged for a closer look

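In 5 of the 30 groups of 4 samples examined, the highest sample stood apart from the rest by Dixon's criterion, which chance alone meets in about 1 of 20 groups. In md KO lines, Hnrnpa2b1 was at 705 TPM in KO3, against a median of 530.5 TPM over the 4 lines, and Hnrnpc was at 148 TPM in KO3, against a median of 91.9 TPM. Hnrnpa3 had 153 CPM in RBM10 library 3, against a median of 105 CPM over the RBM10 libraries. Hnrnpa2b1 had 287 CPM in IgG library 1, against a median of 264 CPM, and Hnrnph1 had 223 CPM in IgG library 3, against a median of 149 CPM. That last library is the shallowest of the 8.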

How the results depend on the processing

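Counts over all genes moved with the settings. In md gene TPM, 2 calls became 0 with a pseudocount of 0.1, 6 without a filter, 0 with a minimum of 5 TPM, 0 with the replicate block, 24 for the exon 3 and 76 for the exon 9 lines alone, and 0 to 4 with 1 sample left out. ES gene TPM, with 1576, gave 774 without a filter, 422 with the replicate block and 21 to 3985 with 1 left out. The ES minus md difference, with 104, gave 170 under quantile normalization and 8 to 1314 with 1 left out. Exon 9 minus exon 3 lines, with 451, gave 50 to 2249. In md cells, transcript shares, with 0, gave 2 at a minimum of 5 TPM and 0 to 3 with 1 left out, cassette exons 0 to 1 and unproductive shares 0 to 2. In ES cells, transcript shares, with 8, gave 40 on the logit scale, 14 at 5 TPM, 0 with the replicate block and 1 to 26 with 1 left out. ES cassette exons, with 8, gave 28, 33, 0 and 0 to 15 in the same order. ES unproductive shares, with 3, gave 6, 0, 0 and 1 to 8. iCLIP gene bodies, with 3472, gave 1794 to 4018 with 1 left out. iCLIP stretches, with 6734, gave 22734 at a minimum of 10 crosslinks, 14104 in pairs 1 and 2 alone and 5096 to 12739 with 1 left out. The intron share of 53.1% in RBM10 libraries was 59.9% with each position counted once, a setting added after seeing the data, as were the exon 3 and exon 9 lines alone. The causes were not tested.

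Among the named genes, stretches and exons, 843 alternatives kept the call, 72 lost it, 10 gained it and 14 reversed a direction that was not called. In ES cells, leaving out 1 sample gave log2 differences of −0.16 to 0.14 for Hnrnpa1, −0.10 to 0.15 for Hnrnph1 and −0.033 to 0.069 for Hnrnpk. Quantile normalization gave −0.0077 for Hnrnpa2b1 and −0.038 for Hnrnpk, and median scaling −0.0099 for Hnrnpk. In md cells, leaving out 1 sample gave −0.31 to 0.14 for Hnrnph2 and −0.19 to 0.034 for Hnrnpu, and the replicate block 0.14 and 0.0076. RNA-seq numbers did not pair the samples (correlations −0.11 to −0.0012 in md and −0.13 to 0.16 in ES cells).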
